A study of Mus musculus with 12 samples.

Results

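The genes that build and break down glycogen were followed by 9 rows of the deposited count table, out of 54446 genes in all. They were chosen by symbol: Gys1, Gbe1, Gyg, Ugp2, Pgm2, Pygl, Pygb, Ppp1r3b and Ppp1r3c. Of the 9, 6 had enough counts to be tested among the 14724 genes that passed the filter on low counts. In wild type NIH3T3 fibroblasts kept in hypoxia, Gbe1, Gys1 and Pgm2 RNA stood 25.9-, 12.9- and 8.76-fold above normoxia and Ugp2 stood 2.22-fold above it, while Gyg and the phosphorylase gene Pygb were lower. The same 4 genes rose and the same 2 fell in cells that lack the N-VEGF coding region. Pygl, Ppp1r3b and Ppp1r3c had at most 6 counts in any sample.

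Glycogen is a branched polymer of glucose that cells hold as an energy store. Glucose-6-phosphate is turned into glucose-1-phosphate by phosphoglucomutase and into UDP-glucose by UDP-glucose pyrophosphorylase, glycogenin starts a chain on itself, glycogen synthase lengthens it, and the branching enzyme adds the branch points. Glycogen phosphorylase releases glucose-1-phosphate from the ends of the chains, and regulatory subunits of protein phosphatase 1 bring that phosphatase to glycogen, where it turns synthase on and phosphorylase off. The branching enzyme, synthase and phosphoglucomutase are widely described as induced by low oxygen in cultured cells.

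RNA-seq was performed on 12 samples of NIH3T3, an established mouse embryo fibroblast line, in 4 groups of 3: wild type (wt) cells in normoxia, wt cells in hypoxia, and ΔN-VEGF cells (dNVEGF in the labels) in either condition. Hypoxia was less than 0.2% oxygen for 16 h. N-VEGF is the amino-terminal piece that is cut from a long form of VEGF-A, and its coding region had been removed from the genome with Cas9 guides, donor cassettes and a later recombinase step, so the ΔN-VEGF groups also carry the history of editing and selection. Per the study's methods, experiments were as a rule repeated and done in triplicate, and 2 edited clones were taken through the recombinase step. They do not say which clone gave the ΔN-VEGF samples, nor whether the RNA-seq samples of a group were separate cultures, so the p-values measure the spread between these samples, which may be technical. As the ΔN-VEGF cells descend from picked single clones, a difference between lines cannot be told apart from a difference between clones.

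Each sample held 30519052 to 43056690 counts on genes. Levels are given as CPM, a gene's count set to a common library size after TMM scaling, which holds the bulk of genes equal between samples, and a change was called at an adjusted p below 0.05 in edgeR's quasi-likelihood test over all 14724 genes. In bulk RNA, fewer cells of a type and less RNA per cell cannot be told apart. The wt normoxia sample numbered 2 stood apart, with a correlation of 0.956 to 0.957 with its partners, and the ΔN-VEGF normoxia sample numbered 2 stood at 0.986, against 0.994 to 0.996 for every other pair within a group. Vegfa, the edited gene, was at 86.2, 39.4 and 82.6 CPM in wt normoxia, 277, 272 and 291 in wt hypoxia, 37.3, 34.2 and 35.5 in ΔN-VEGF normoxia and 437, 419 and 430 in ΔN-VEGF hypoxia. Counts over the whole gene do not check the deletion, which takes only part of it. All 10 genes of a hypoxia list (Slc2a1, Pdk1, Ldha, Car9, Ndrg1, Egln3, Bnip3, Ankrd37, Adm and P4ha1) rose by at least 2-fold in both lines.

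All 8 fibroblast markers were tested, and their summed level was 17200 to 25400 CPM in wt normoxia, 27200 to 29500 in wt hypoxia, 20200 to 21600 in ΔN-VEGF normoxia and 41500 to 43700 in ΔN-VEGF hypoxia. They did not move one way: the mean of Vim went from 6160 to 14200 CPM in wt and from 6000 to 17300 CPM in ΔN-VEGF cells, whereas Pdgfrb was 3.83-fold and 2.72-fold lower in hypoxia. Col3a1 was 4.59-fold lower in wt and 2.69-fold higher in ΔN-VEGF hypoxia, and Thy1 was 2.22-fold lower in ΔN-VEGF hypoxia. The normoxia samples numbered 2 overlapped hypoxia here: Col3a1 was at 336 CPM in the wt one, against 2240 and 2180 in its partners and 341 to 348 in wt hypoxia, and Thy1 at 207 CPM in the ΔN-VEGF one, against 558 in both partners and 187 to 215 in hypoxia. Liver and muscle are the tissues best known for glycogen. The 4 hepatocyte markers summed to at most 1.17 CPM in any sample, with Alb and Ttr at 0 counts throughout. The 4 skeletal muscle markers went from 0.27 to 2.14 CPM in wt normoxia to 26.1 to 31.6 in wt hypoxia, and from 0.098 to 0.711 to 10.7 to 13 in ΔN-VEGF cells. Acta1 carried nearly all of it, at a mean of 29.1 CPM in wt hypoxia, while Ckm, Mb and Myh4 had means of at most 0.0956 CPM in any group. The 4 macrophage markers summed to 4.85 to 13 CPM in wt and 6.62 to 9.33 CPM in ΔN-VEGF normoxia. In hypoxia they summed to 35.5 to 35.8 and 54.5 to 59 CPM. Csf1r carried most of the rise, and Ptprc and Adgre1 stayed at means of at most 0.0401 CPM. Cd68 was also called higher in hypoxia, 1.52-fold in wt and 1.49-fold in ΔN-VEGF cells. The 4 endothelial markers summed to 1.81 to 4.23 CPM in wt and 1.96 to 4.19 CPM in ΔN-VEGF normoxia. In hypoxia their sums were 5.91 to 8.05 and 20.3 to 25.1 CPM. They were mostly Cdh5, with Kdr at a mean of at most 0.00761 CPM. Pecam1, at means of at most 0.596 CPM, was called 2.24-fold higher in ΔN-VEGF hypoxia and was not called in wt hypoxia. The 4 epithelial markers were at most at 2.42 CPM. The part of Acta1, Csf1r and Cdh5 expressing cells, if any, in the changes described here was not tested.

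Positions are those of the mouse build GRCm38, and the counts are of exons. Gys1 (ENSMUSG00000003865) lies on the plus strand at chr7:45434844-45456619, Gbe1 (ENSMUSG00000022707) at chr16:70313949-70569716 on the plus strand, and Gyg (ENSMUSG00000019528) at chr3:20122084-20155317 on the minus strand. Ugp2 (ENSMUSG00000001891) lies at chr11:21321138-21371201 on the minus strand and Pygb (ENSMUSG00000033059) at chr2:150786735-150831758 on the plus strand. The row named Pgm2 is ENSMUSG00000025791 at chr4:99929414-99987294 on the plus strand, a gene that GENCODE M21 and RefSeq call Pgm1. It is therefore the main phosphoglucomutase, and the row named Pgm1, ENSMUSG00000029171 on chromosome 5, is the gene now called Pgm2. The names of the count table are kept here.

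The library kit does not mark the strand, so reads from overlapping genes on opposite strands cannot be told apart. Of the exonic length, 13.6% of Pgm2 (398 bp) lies over Itgb3bp, 6.47% of Gys1 (310 bp) over Ruvbl2 and 2.54% of Ugp2 (78 bp) over Gm12043. Gbe1, Gyg and Pygb share no exonic base with another annotated gene. The limit also holds for other genes named here, among them Pgm3 (28.3% over Dop1a) and Phkg2 (21.9% over Ccdc189). For Csf1r the share is 15.1% (Hmgxb3) and for Gpi1 11.5% (Gm26762).

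The promoters of the 4 genes that rose are shown with that of Pygb, which fell, because hypoxia-inducible factors are known to bind a short core, ACGTG or GCGTG, near the genes they activate. Each window runs from 250 bases before to 50 bases after a start site in RefSeq (GRCm38.p6), 5′ to 3′ on the gene's strand. Capitals mark every match to ACGTG or GCGTG on either strand, so that CACGT and CACGC are matches on the other strand, overlapping matches run together, and CACGTG counts on both strands.
Pgm2 chr4:99929201-99929500 plus strand: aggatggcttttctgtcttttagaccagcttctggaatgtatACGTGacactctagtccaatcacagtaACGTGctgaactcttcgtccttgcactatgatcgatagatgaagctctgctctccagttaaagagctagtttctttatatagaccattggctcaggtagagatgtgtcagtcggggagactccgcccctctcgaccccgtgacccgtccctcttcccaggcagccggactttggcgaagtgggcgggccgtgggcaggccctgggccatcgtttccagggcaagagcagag
Ugp2 chr11:21371218-21371517 minus strand: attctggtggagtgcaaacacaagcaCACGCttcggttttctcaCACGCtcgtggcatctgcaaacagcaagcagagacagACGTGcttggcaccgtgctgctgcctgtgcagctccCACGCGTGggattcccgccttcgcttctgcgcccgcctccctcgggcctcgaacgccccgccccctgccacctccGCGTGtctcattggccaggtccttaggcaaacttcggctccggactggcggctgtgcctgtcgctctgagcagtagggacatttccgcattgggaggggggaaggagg
Gys1 chr7:45434589-45434888 plus strand: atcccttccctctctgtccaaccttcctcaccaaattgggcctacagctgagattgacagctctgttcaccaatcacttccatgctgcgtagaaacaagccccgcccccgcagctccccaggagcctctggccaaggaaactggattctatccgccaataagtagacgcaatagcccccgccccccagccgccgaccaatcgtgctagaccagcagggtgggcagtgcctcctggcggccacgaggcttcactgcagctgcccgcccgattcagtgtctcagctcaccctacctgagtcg
Gbe1 chr16:70313699-70313998 plus strand: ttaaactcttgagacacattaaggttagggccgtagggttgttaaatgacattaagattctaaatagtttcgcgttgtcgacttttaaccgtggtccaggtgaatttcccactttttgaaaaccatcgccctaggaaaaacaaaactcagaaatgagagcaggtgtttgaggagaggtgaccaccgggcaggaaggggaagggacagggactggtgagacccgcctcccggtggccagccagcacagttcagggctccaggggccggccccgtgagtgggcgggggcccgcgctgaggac
Pygb chr2:150786546-150786845 plus strand: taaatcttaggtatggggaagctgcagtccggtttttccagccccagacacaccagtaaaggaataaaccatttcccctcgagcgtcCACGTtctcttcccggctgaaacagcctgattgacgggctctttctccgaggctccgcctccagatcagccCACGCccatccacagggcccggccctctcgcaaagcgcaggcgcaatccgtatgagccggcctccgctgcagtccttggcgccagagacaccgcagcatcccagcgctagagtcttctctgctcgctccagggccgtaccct

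The Pgm2 window held 2 matches, at -208 and -181 from the start site. This Ugp2 window, the upstream of 2 in the table, held 6 matches, and the other Ugp2 window held 0. The Gys1 and Gbe1 windows held 0, although these were among the genes with the largest rise. Pygb held 2, at -163 and -92, and Gyg, which also fell, held 3. Pygl held 2 and Ppp1r3c 4, although neither gene had enough counts to be tested. Over all 32851 windows of 27025 genes, 43.8% held at least 1 match, 20.6% at least 2 and 0.694% at least 6. Of the 9 windows of members, 6 held at least 1. A match is only a string of letters, and a window without it says nothing of binding elsewhere in the gene.

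Levels between genes can be compared only per length, here as CPM per kb of exon. In wt normoxia the highest was Pgm2, at 37.1 ± 4.08 CPM per kb (SD, n = 3), followed by Gyg at 28.6 ± 2.86 and Pygb at 28.3 ± 3.08, which did not differ beyond their spread. Gys1 stood at 19.1 ± 0.489 and Ugp2 at 15.1 ± 2.61, and Gbe1 was far lower at 2.32 ± 0.707. In wt hypoxia the order was Pgm2 at 325 ± 16.3, Gys1 at 246 ± 19.1, Gbe1 at 59.9 ± 3.66, Ugp2 at 33.6 ± 3.16, Gyg at 23.3 ± 1.4 and Pygb at 21.6 ± 1.92. Only Gyg and Pygb overlapped there.

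In ΔN-VEGF normoxia the order was Pgm2 at 41.9 ± 1.02 CPM per kb, then Pygb at 27.4 ± 0.421, Gyg at 26.9 ± 2.39 and Gys1 at 23.9 ± 4.53, then Ugp2 at 16.5 ± 1.48 and Gbe1 at 3.01 ± 0.257. Gyg overlapped both Pygb and Gys1, while every Gys1 value, at most 26.7, was below every Pygb value, at least 27.0. In ΔN-VEGF hypoxia Gys1 came first at 378 ± 7.38, ahead of Pgm2 at 342 ± 11.9, and the rest followed as Gbe1 at 69.3 ± 2.83, Ugp2 at 44.8 ± 1.21, Gyg at 19.1 ± 0.881 and Pygb at 14.8 ± 0.796. Gys1 thus passed Pgm2 in this group, while in wt hypoxia Pgm2 was ahead. The tissue forms were low: the liver synthase Gys2 had at most 12 counts in any sample, and the muscle phosphorylase Pygm had group means of 0.223 to 0.398 CPM per kb.

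**Figure D1:**
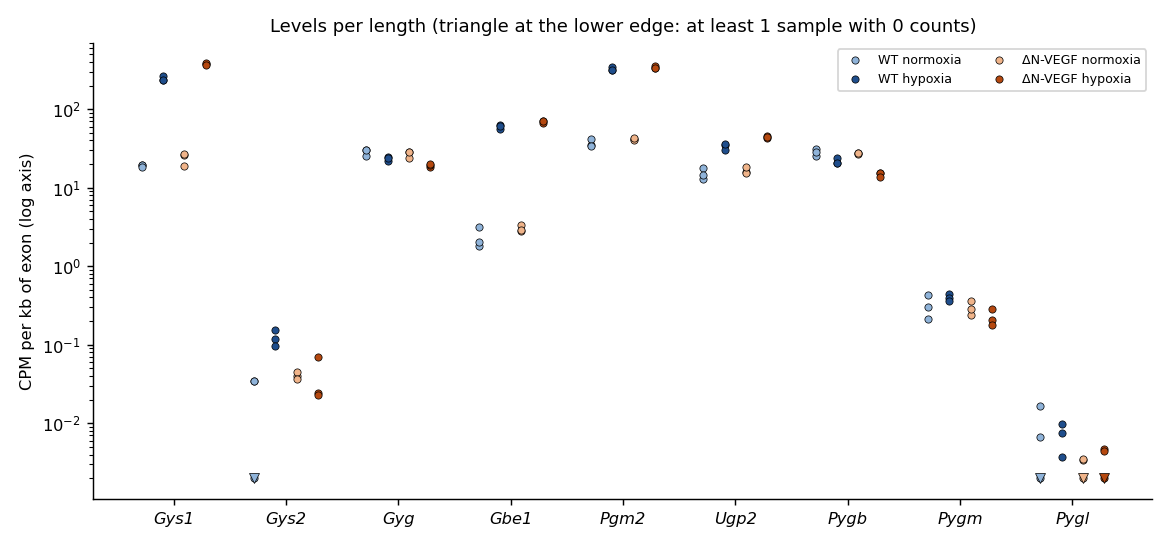
Level of 9 glycogen genes in each of the 12 samples, as CPM per kb of exon on a log axis, colored by group, with triangles at the lower edge for samples with 0 counts. In hypoxia Gys1, Gbe1, Pgm2 and Ugp2 sit above their normoxia points in both lines, and Gys2, Pygm and Pygl lie far below the other genes in every group.

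The first question was how the members respond to hypoxia in wt cells. All 6 tested members were called, 4 higher and 2 lower, where 36.5% of all tested genes were called (18.2% higher, 18.3% lower). All 4 that rose did so by at least 2-fold, against 9.17% of all genes. The members' median change was 2.14 on the log2 scale, against -0.07 over all genes. None of the 6 members had overlapping samples between the conditions, as was the case for 45% of all genes.

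Pgm2, the phosphoglucomutase that supplies glucose-1-phosphate, was at 103, 122 and 101 CPM in wt normoxia and 926, 1000 and 919 CPM in wt hypoxia. Every hypoxia sample was far above every normoxia sample. The log2 fold change was 3.13 ± 0.099 (SE, 95% interval 2.91 to 3.35, adjusted p = 5e-09). Ugp2, which makes the UDP-glucose that synthase consumes, was at 39.3, 55.1 and 44.8 CPM in normoxia and 108, 92 and 110 CPM in hypoxia. The groups did not overlap, and the change, 1.15 ± 0.129 on the log2 scale (adjusted p = 5e-05), was the smallest of the 4 rises. The 2 supply genes therefore rose by unequal amounts, 8.76- and 2.22-fold.

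Gyg, glycogenin, the protein primer of each glycogen particle, was at 70.5, 59.4 and 71.5 CPM in normoxia and 57, 50.9 and 56.2 CPM in hypoxia. The lowest normoxia sample, the one numbered 2, was only just above the highest hypoxia sample. Its log2 change was -0.29 ± 0.103 (adjusted p = 0.044). That call is marginal: it was lost when any 1 of 10 samples was left out, all but the normoxia samples numbered 2 of each line, with adjusted p between 0.059 and 0.14. It was also lost with no filter on low counts (adjusted p = 0.13), with at least 10 counts required in every sample (adjusted p = 0.062) and in a fit of only the 6 wt samples (adjusted p = 0.12).

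Gys1, the synthase of muscle and most other tissues, was at 93.5, 92.5 and 89 CPM in normoxia and 1120, 1280 and 1130 CPM in hypoxia, with the 2 groups wide apart. The log2 fold change was 3.68 ± 0.14 (95% interval 3.38 to 3.99, adjusted p = 1.7e-08). Gbe1, the branching enzyme, was at 9.63, 16.7 and 10.9 CPM in normoxia and 335, 298 and 329 CPM in hypoxia. The sample numbered 2 was the highest of the normoxia group and the lowest of the hypoxia group, and still the groups were far apart. Gbe1 had the largest rise of the members, 4.69 ± 0.197 on the log2 scale (95% interval 4.26 to 5.13, adjusted p = 4e-08). Ranked by rise among the 8523 genes with a mean of at least 10 CPM, Gbe1 came 16th, Gys1 34th, Pgm2 59th and Ugp2 485th.

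Pygb, the brain form of glycogen phosphorylase and the main form measured in these cells, was at 150, 120 and 139 CPM in normoxia and 98.2, 114 and 98.6 CPM in hypoxia. The samples numbered 2 of the 2 conditions lay closest to each other but did not overlap. The log2 change was -0.39 ± 0.101 (adjusted p = 0.01), to 76.1% of the normoxia level. It missed the threshold without the wt hypoxia sample numbered 1 (adjusted p = 0.05) and in a fit of only the 6 wt samples (adjusted p = 0.073), and passed it only before rounding without the wt hypoxia sample numbered 3 (adjusted p = 0.05). Pygl, the liver form, had 0 to 6 counts in a sample and 17 in all, Ppp1r3b had 1 count in all, and Ppp1r3c had 0 counts in the 12 samples. A count of 0 allows up to 3 counts, which is 0.0578 to 0.103 CPM in these libraries and covers counting error only, so differences in these 3 genes were not detectable at this depth.

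**Figure D2:**
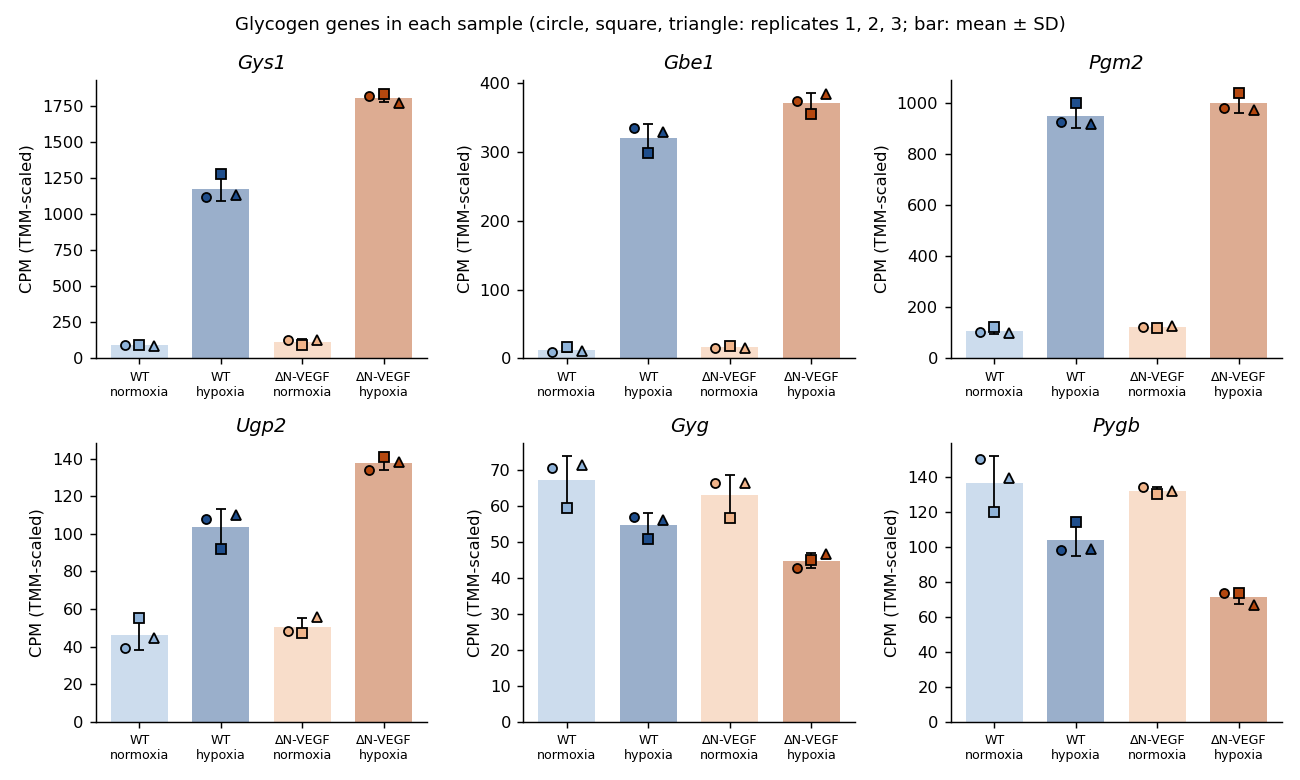
CPM of the 6 tested members in each sample, with bars at the group mean and error bars of 1 SD (n = 3), each panel on its own linear axis from 0. The hypoxia points of Gys1, Gbe1, Pgm2 and Ugp2 lie above all normoxia points of the same line, and those of Gyg and Pygb lie below.

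The same contrast was then made in ΔN-VEGF cells, where again all 6 tested members were called, 4 higher and 2 lower, all without overlap between samples. The background was higher here: 53.3% of all genes were called (26.9% higher, 26.4% lower), 14.6% rose by at least 2-fold, and 70.5% had no overlap. The members' median change was 2.24, against -0.01 over all genes. All 6 calls held in each of 20 alternative fits, which included leaving out each sample.

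Pgm2 was at 123, 119 and 125 CPM in ΔN-VEGF normoxia and 982, 1040 and 975 CPM in hypoxia, a log2 fold change of 3.03 ± 0.0986 (adjusted p = 3.7e-09). Ugp2 was at 48.3, 47.4 and 55.7 CPM and then 134, 141 and 138 CPM, a change of 1.45 ± 0.13 (adjusted p = 5.3e-06) or 2.72-fold. The hypoxia samples were again well clear of those in normoxia. Gyg went from 66.3, 56.7 and 66.5 CPM to 42.7, 45 and 46.8 CPM, a fall to 71% of the normoxia level (log2 change -0.49 ± 0.103, adjusted p = 0.0021).

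Gys1 was at 126, 89.6 and 128 CPM in ΔN-VEGF normoxia, where the sample numbered 2 was low, and at 1820, 1830 and 1770 CPM in hypoxia. This was a 15.8-fold rise (log2 fold change 3.98 ± 0.142, 95% interval 3.67 to 4.29, adjusted p = 7e-09). Gbe1 was at 15.2, 17.7 and 15.5 CPM and then 374, 355 and 384 CPM, a 23-fold rise (4.52 ± 0.196, adjusted p = 2.8e-08). Both synthesis enzymes thus had larger folds than the supply genes, as in wt cells. Pygb went from 134, 130 and 132 CPM to 73.7, 73.3 and 66.9 CPM, which is 54.1% of the normoxia level (-0.89 ± 0.102, adjusted p = 3.2e-05). By rise, Gbe1 ranked 27th, Gys1 49th, Pgm2 126th and Ugp2 582nd of the same 8523 genes.

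Without TMM, on total counts alone, the median of all genes moved from -0.07 to -0.30 for the wt contrast and from -0.01 to -0.41 for the other, and the share of calls that were higher moved from 49.8% to 28.2% and from 50.5% to 25.6%. All 6 members kept their direction and their call in both lines on that scale. The Gys1 rise was then 3.46 in wt and 3.57 in ΔN-VEGF cells.

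As a share of all counts, the 9 members together held 0.0472% to 0.0588% in the 6 normoxia samples and 0.257% to 0.288% in the 6 hypoxia samples. Gys1 took 19.5% to 24.6% of the members' summed CPM in normoxia, 42.4% to 45.1% in wt hypoxia and 52.3% to 53.2% in ΔN-VEGF hypoxia.

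The levels per kb of Gys1, Pygb and Gyg were also set against each other within each sample, as a description without a test. Gys1 per Pygb, synthase over phosphorylase RNA, was 0.627, 0.771 and 0.644 in wt normoxia and 11.5, 11.3 and 11.5 in wt hypoxia. In ΔN-VEGF cells it was 0.948, 0.692 and 0.975 in normoxia and 24.8, 25.1 and 26.6 in hypoxia. The ratio was thus below 1 in every normoxia sample and above 11 in every hypoxia sample, and the 2 hypoxia groups did not overlap. Gys1 per Gyg, synthase over primer, had a mean of 0.674 ± 0.0789 in wt normoxia, 10.6 ± 1.48 in wt hypoxia, 0.883 ± 0.0945 in ΔN-VEGF normoxia and 19.8 ± 1.21 in ΔN-VEGF hypoxia. These are ratios of RNA, and neither enzyme activity nor glycogen was measured in these files.

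Of the phosphoglucomutase genes Pgm1, Pgm2 and Pgm2l1, only Pgm2 was called in hypoxia. Its share of the summed level per kb of Pgm1, Pgm2 and Pgm2l1 was 63.5% ± 0.3 in wt normoxia and 93.9% ± 0.635 in wt hypoxia, and 66.4% ± 0.551 and 94.9% ± 0.208 in ΔN-VEGF cells. The log2 change of Pgm1 in hypoxia was 0.00 in wt (95% interval -0.22 to 0.21) and -0.22 in ΔN-VEGF cells (-0.44 to 0), and that of Pgm2l1, which makes glucose-1,6-bisphosphate, was -0.22 (-0.51 to 0.07) and 0.16 (-0.13 to 0.45), none of them called. Pgm3, which acts on N-acetylglucosamine phosphate, rose by 0.70 ± 0.124 (adjusted p = 0.0012) and 1.14 ± 0.125 (adjusted p = 2.3e-05) on the log2 scale.

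**Figure D3:**
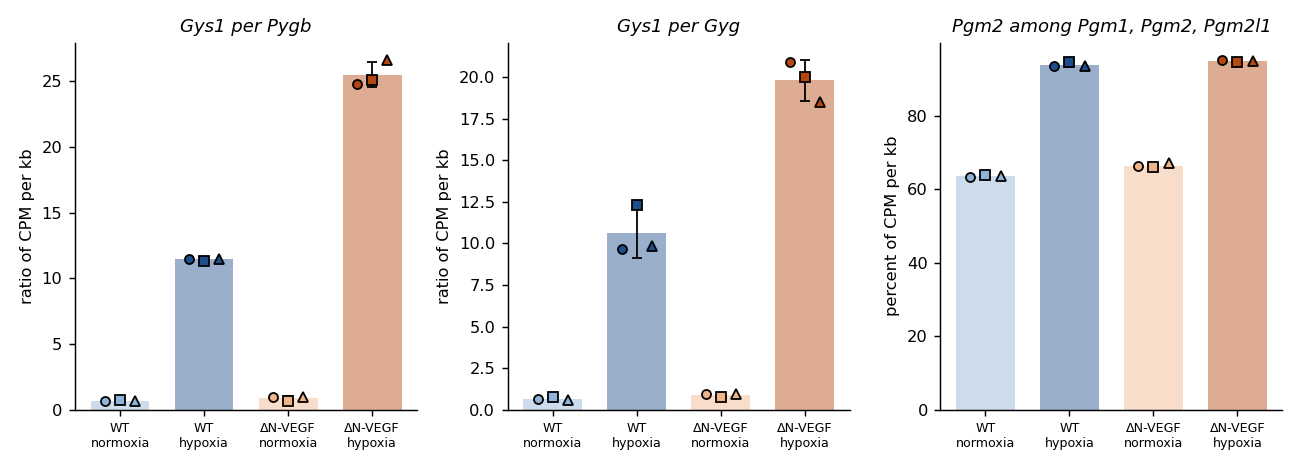
Ratios of CPM per kb in each sample: Gys1 over Pygb, Gys1 over Gyg, and the percentage of Pgm2 in the sum of Pgm1, Pgm2 and Pgm2l1, with bars at the group mean and error bars of 1 SD (n = 3). Gys1 per Pygb is under 1 in all normoxia samples, at 11.3 to 11.5 in wt hypoxia and at 24.8 to 26.6 in ΔN-VEGF hypoxia.

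The next question was whether the lines differ. In normoxia 0 of 6 members were called in edgeR, where 4.36% of all genes were (1.39% higher, 2.97% lower). At an unadjusted p below 0.05, 2 passed, Gys1 and Gbe1, and DESeq2 also called 0. The log2 differences, ΔN-VEGF over wt, were 0.32 for Gys1 (95% interval 0.04 to 0.60, adjusted p = 0.19), 0.38 for Gbe1 (0 to 0.76, adjusted p = 0.26), 0.17 for Pgm2 (-0.03 to 0.37), 0.12 for Ugp2 (-0.16 to 0.40), -0.09 for Gyg (-0.31 to 0.14) and -0.05 for Pygb (-0.27 to 0.17). In all 6 the samples of the lines overlapped, as they did for all but 16.3% of genes.

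This count moved most when the wt normoxia sample numbered 2 was left out, which stands apart from its partners. Without it 4 members were called higher in ΔN-VEGF cells: Gbe1 by 0.67 (adjusted p = 0.00014), Gys1 by 0.34 (adjusted p = 0.041), Pgm2 by 0.28 (adjusted p = 0.0044) and Ugp2 by 0.28 (adjusted p = 0.035). Without the ΔN-VEGF normoxia sample numbered 2, Gys1 alone was called, at 0.48 (adjusted p = 0.013). With both normoxia samples numbered 2 left out the same 4 were called, at 0.59, 0.49, 0.30 and 0.32 in the order above. The normoxia calls of Gbe1, Pgm2 and Ugp2 were thus made only in fits without the wt sample, and that of Gys1 in fits without either or both of the samples numbered 2.

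In hypoxia 3 of 6 members were called between the lines, 2 higher and 1 lower in ΔN-VEGF cells, where 20.1% of all genes were called (10.8% higher, 9.36% lower). None of the 3 differed by 2-fold, as 6.81% of all genes did. The samples of the lines did not overlap for 5 of the 6 members, and for 59.8% of all genes. Gys1 was 1.53-fold higher in ΔN-VEGF cells (log2 difference 0.62 ± 0.127, 95% interval 0.34 to 0.90, adjusted p = 0.0068), with the highest wt sample at 1280 CPM and the lowest ΔN-VEGF sample at 1770 CPM. Pygb was at 68.7% of the wt level (-0.54 ± 0.101, adjusted p = 0.0045), with 98.2 CPM the lowest wt and 73.7 CPM the highest ΔN-VEGF value. The Pygb call held under every setting tried except that of at least 2-fold. That of Gys1 was lost on total counts alone, where the difference was 0.40 (adjusted p = 0.061).

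Ugp2 was 1.33-fold higher in ΔN-VEGF hypoxia (0.42 ± 0.127, adjusted p = 0.042), a call that was lost without any 1 of 9 samples (all but the wt normoxia samples numbered 1 and 2 and the ΔN-VEGF normoxia sample numbered 2), with the replicate number as a block (adjusted p = 0.05), with no filter on low counts (adjusted p = 0.088) and on total counts alone, where the difference was 0.19 (adjusted p = 0.23). Gyg was at 82% of the wt level without a call (-0.29 ± 0.103, adjusted p = 0.073), and it was called with the block (adjusted p = 0.042), by DESeq2 (adjusted p = 0.049), in a fit of only the 6 hypoxia samples (adjusted p = 0.00087), without the wt normoxia sample numbered 2 (adjusted p = 0.0097), with both normoxia samples numbered 2 left out (adjusted p = 0.00024) and on total counts alone (adjusted p = 0.022). Gbe1 differed by 0.21 (95% interval -0.16 to 0.58, adjusted p = 0.43) and was called without the wt normoxia sample numbered 2 (0.21, adjusted p = 0.044), with both normoxia samples numbered 2 left out (0.21, adjusted p = 0.0029) and in a fit of only the 6 hypoxia samples (0.20, adjusted p = 0.0073). Pgm2 differed by 0.07 (-0.13 to 0.27, adjusted p = 0.63). On total counts alone Gbe1 and Pgm2 turned to -0.01 and -0.15, and the median of all genes moved from -0.01 to -0.23, with 17.1% of calls higher in place of 53.5%.

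Whether the hypoxia response itself differed was tested by the interaction of line and oxygen. No member was called in edgeR, where 3.36% of all genes were. At an unadjusted p below 0.05, only Pygb passed, with a response 0.49 ± 0.143 lower on the log2 scale in ΔN-VEGF cells (difference -0.49, 95% interval -0.81 to -0.18). Its adjusted p was 0.084 in edgeR and 0.019 in DESeq2, which called it among 1487 of all genes, against 495 called in edgeR. The difference was 0.30 for Gys1 (-0.10 to 0.69), 0.29 for Ugp2 (-0.10 to 0.69), -0.10 for Pgm2 (-0.39 to 0.18), -0.17 for Gbe1 (-0.70 to 0.36) and -0.20 for Gyg (-0.52 to 0.12). Without the wt normoxia sample numbered 2, Gbe1 (-0.46, adjusted p = 0.0087) and Pygb (-0.43, adjusted p = 0.0079) were called. With both normoxia samples numbered 2 left out, Gbe1 (-0.38), Pygb (-0.43) and Pgm2 (-0.23) were called. How many of all genes were called in these fits was not counted.

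**Figure D4:**
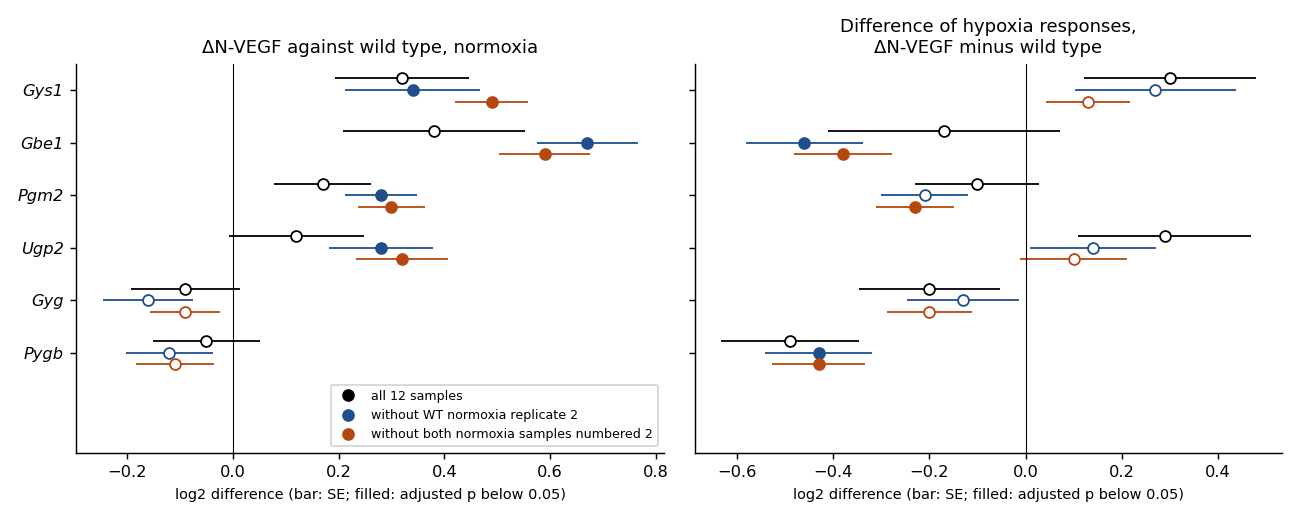
Log2 difference between the lines in normoxia (left) and between their hypoxia responses (right) for the 6 tested members, ΔN-VEGF minus wild type, with bars of 1 SE and filled points at an adjusted p below 0.05. With all 12 samples no point is filled, and without the wt normoxia sample numbered 2 there are 4 filled points on the left and 2 on the right.

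The rest of the pathway was followed by a list of 34 further genes of glycogen and glucose phosphate handling, of which 26 could be tested. In wt hypoxia 10 rose (6 by at least 2-fold) and 2 fell, and in ΔN-VEGF hypoxia 11 rose (8 by at least 2-fold) and 3 fell. Of all genes, 18.2% rose and 18.3% fell in wt hypoxia (9.17% rose by at least 2-fold), and 26.9% rose and 26.4% fell in ΔN-VEGF hypoxia (14.6% rose by at least 2-fold). On total counts alone 7 fell in wt and 10 in ΔN-VEGF hypoxia. Of all genes, 6710 were then called in wt hypoxia, 28.2% of them higher, in place of 5372 and 49.8%. In ΔN-VEGF hypoxia 8799 were called, 25.6% of them higher, in place of 7853 and 50.5%. Without the ΔN-VEGF normoxia sample numbered 2, 5 of the list fell in wt hypoxia. Without the wt normoxia sample numbered 2, 6 fell in ΔN-VEGF hypoxia. The share of all genes that fell was not counted in these fits with samples left out. The median change of the list was 0.21 and 0.22, against -0.07 and -0.01 over all genes. The 6 genes that rose at least 2-fold in both lines, where 7.72% of all genes did, were Epm2a, Stbd1, Ppp1r3e, Hk1, Hk2 and Gpi1.

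Epm2a, laforin, a phosphatase that removes phosphate from glycogen, had the largest rise of the list. It was at 1.23 to 1.48 CPM in wt normoxia and 22.8 to 25.1 CPM in wt hypoxia, an 18.1-fold rise, and at 1.25 to 1.87 and 73.1 to 76.1 CPM in ΔN-VEGF cells, a 47.2-fold rise. Stbd1, a protein that binds glycogen and anchors it to membranes, went from 3.41 to 8.15 CPM to 44.8 to 48.9 CPM in wt cells (7.34-fold) and from 2.97 to 3.50 CPM to 91.6 to 110 CPM in ΔN-VEGF cells (32-fold). The 2 genes were far higher in every hypoxia sample than in any normoxia sample, and higher in every ΔN-VEGF than in any wt hypoxia sample. Their responses differed between the lines by 1.38 ± 0.193 (adjusted p = 0.0068) for Epm2a and 2.12 ± 0.349 (adjusted p = 0.013) for Stbd1 on the log2 scale. The latter was lost without the wt hypoxia or the ΔN-VEGF hypoxia sample numbered 1 (adjusted p = 0.051 in each). In all, 4 genes of the wider list had a larger response in ΔN-VEGF cells, as did 2.21% of all genes, and 0 a smaller one. The first count was 8 without the wt normoxia sample numbered 2, 7 by DESeq2 and 2 without the hypoxia sample numbered 1 of either line. DESeq2 called 1487 of the 14724 genes for the interaction, 67.7% of them higher, against 495 and 65.9% in edgeR. The second count was 4 without the wt normoxia sample numbered 2 and 6 with both normoxia samples numbered 2 left out. Shares of all genes were not counted in the fits with samples left out.

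Ppp1r3e, a glycogen-targeting subunit of protein phosphatase 1, rose by 1.39 ± 0.149 and 2.21 ± 0.147, from a mean of 1.16 to 3.04 CPM in wt and from 1.71 to 7.92 CPM in ΔN-VEGF cells. The members Ppp1r3b and Ppp1r3c, of the same family, were near or at 0. Upstream of Pgm2, the hexokinases Hk1 and Hk2, which make glucose-6-phosphate, rose by 2.96 and 2.48 in wt and by 4.13 and 2.83 in ΔN-VEGF cells, and Gpi1, which turns that product toward glycolysis, rose by 2.12 and 2.17.

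Of the other phosphorylase side, Pygm was not called in either line (0.34, 95% interval -0.29 to 0.98, and -0.39, -1.06 to 0.28). The 2 genes that fell in both lines were Phka2 and Phkb, subunits of the kinase that turns phosphorylase on, named here after their values were seen. They changed by -0.63 and -0.69 in wt and by -0.69 and -1.22 in ΔN-VEGF cells. Of the other subunits, also named after their values were seen, the catalytic subunit Phkg2 was at 0.16 without a call in wt (adjusted p = 0.36), whereas its rise in ΔN-VEGF cells was 0.83 on the log2 scale (adjusted p = 0.00032). Phka1 was at -0.08 and 0.03 and Phkg1 at -0.69 and -0.70, without a call.

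Between the lines, 0 genes of the wider list were called higher and 1 lower in normoxia, and 9 higher and 1 lower in hypoxia, of 26 tested. Of all genes, 1.39% were higher and 2.97% lower in normoxia, and 10.8% and 9.36% in hypoxia. The lower one was Ppp1r3d in both, another targeting subunit, named after its values were seen, at group means of 0.489 and 0.383 CPM in wt and 0.0941 and 0.0414 CPM in ΔN-VEGF cells. The count of 9 higher was 5 without the sample numbered 1 or 3 of either hypoxia group. The count of lower ones ranged from 0 to 9 in hypoxia over all settings. In normoxia, 6 were higher and 5 lower without the wt normoxia sample numbered 2. The 1 lower call was lost without any 1 of 9 other samples. The shares of all genes given above are of the fit of all 12 samples, and those of fits with samples left out were not counted.

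**Figure D5:**
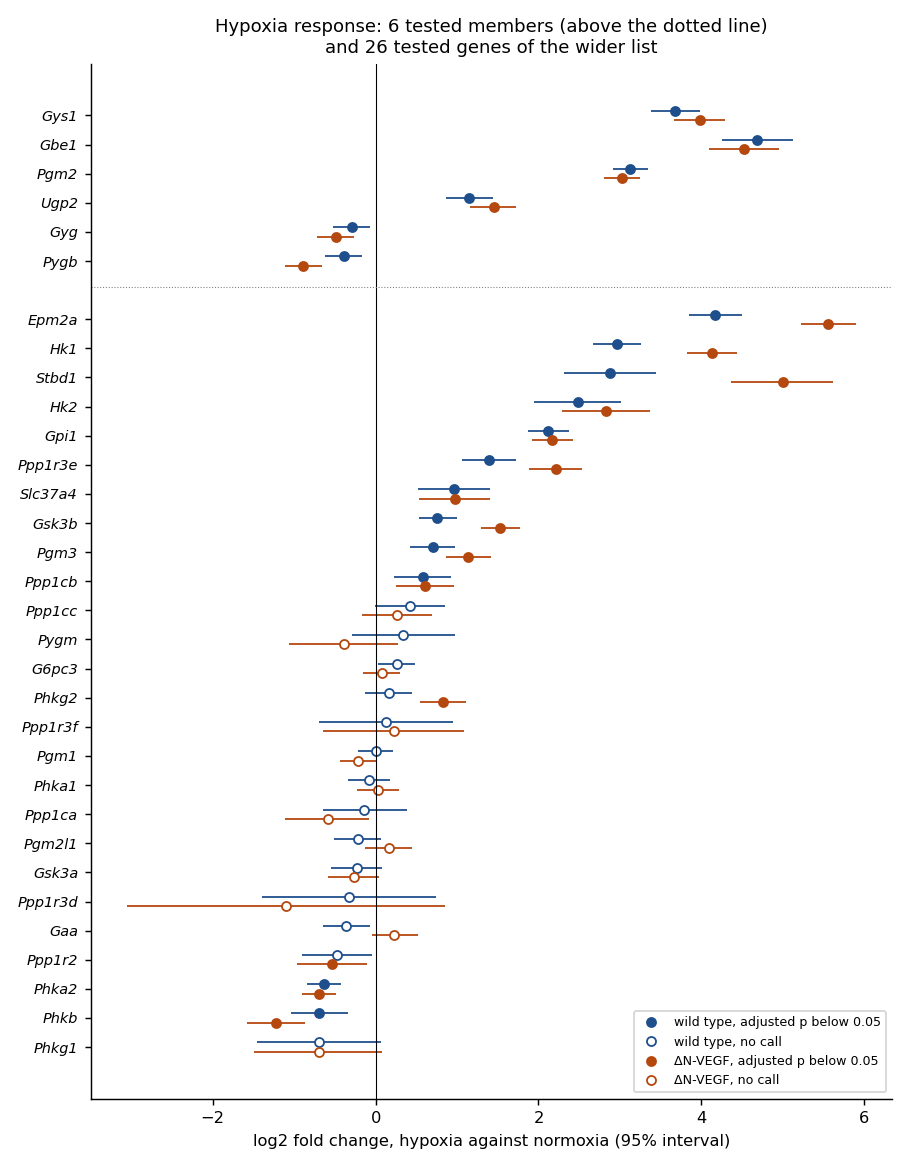
Log2 fold change of hypoxia over normoxia with its 95% interval in wild type (blue) and ΔN-VEGF cells (orange) for the 6 tested members and, under the dotted line, the 26 tested genes of the wider list, with filled points at an adjusted p below 0.05. All 12 points of the members are filled, with Gbe1, Gys1, Pgm2 and Ugp2 to the right of 0 and Gyg and Pygb to the left.

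Across the 12 samples, the genes whose log2 CPM was most alike to that of a member were listed among 8522 candidates with a mean of at least 10 CPM. For Gys1 they were Pafah1b3 (Pearson r = 0.999), Spg21 (0.998) and Slc27a4 (0.997). For Gbe1 they were Fam162a (0.998), Pgm2 (0.998) and Ankrd37 (0.997), so that 1 of the 3 was another member. For Pgm2 they were Tspan9 (0.999), Ier3 (0.999) and Gbe1 (0.998), and for Ugp2 Gdi2 (0.994), Swap70 (0.993) and Sap30 (0.993). All 12 points come from the same libraries and fall into a normoxia and a hypoxia cluster, so any gene with a large hypoxia response scores high, and the values are given as a description.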

How the data were processed

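RNA of 12 samples was sequenced by the authors as 80-base single reads from an unstranded kit on a NextSeq 550, trimmed with Trim Galore and cutadapt (1.10), mapped with TopHat2 (2.1.0, Bowtie2 2.2.6) to the mouse genome GRCm38 and counted per gene with HTSeq (0.6.1), and the deposited values are these raw counts. The counting mode and strand setting are not given in the sources used here. Groups come from the sample labels.

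One mean per group was fitted to the counts of all 12 samples with edgeR (4.0.16, R 4.3.3, limma 3.58.1). TMM scaling, filterByExpr (minimum count 10) and a quasi-likelihood F test were used. Benjamini-Hochberg adjustment was made over 14724 genes within each of the 5 contrasts, and not across the contrasts. The SE was derived from the F statistic. An exact permutation test of 3 against 3 cannot go below p = 0.1, so none was used. Alternatives were DESeq2 (1.42.0), other scalings and filters, the replicate number as a block, and samples left out. The correlation of deviations between same-numbered samples was 0.36 to 0.50 for the lines in normoxia and -0.02 to 0.11 elsewhere. In normoxia, samples 1 and 3 of the 2 lines correlated about as much with each other, at 0.35 and 0.36. The numbers there set apart only the samples numbered 2, and do not pair samples 1 and 3. Exon lengths are from GENCODE M21, whose positions were identical for 98.3% of 54409 shared gene IDs.

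The members and lists were chosen with earlier results of these data known. The genes named are all members, the wider-list genes called at least 2-fold higher in both hypoxia contrasts, Gys2, Pygm and the other phosphoglucomutases, the 3 genes most alike to each raised member, and Vegfa. Any other gene is said to be chosen after its values were seen, the marker and hypoxia lists apart. Other genes of the wider list enter only its counts. One gene of the pathway was left out of the list and is not reported here.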

Additional observations from a re-analysis of the deposited data

Results flagged for a closer look

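Among the members, the wider list of glycogen genes and Vegfa, the test of the difference itself, the interaction of line and oxygen in edgeR, found 5 genes, none of them a member, that responded more to hypoxia in the ΔN-VEGF line, and 2.21% of all genes were called in that direction. On the log2 scale the responses differed by 1.38 for Epm2a (laforin, adjusted p = 0.0068), 2.12 for Stbd1 (a glycogen-binding protein, adjusted p = 0.013), 1.16 for Hk1 (hexokinase 1, adjusted p = 0.0089), 0.77 for Gsk3b (a kinase that inhibits glycogen synthase, adjusted p = 0.026) and 1.57 for Vegfa (the edited gene, adjusted p = 0.028). The Epm2a and Hk1 calls held in all 19 alternatives, that of Stbd1 in 17, that of Vegfa in 9 and that of Gsk3b in 8 of 19. The Vegfa call was lost without any 1 of 10 samples, all but the normoxia samples numbered 2 of each line (adjusted p between 0.064 and 0.089). Gsk3b was at 46.1 to 58.6 CPM in wild type normoxia, 85.8 to 97.7 in wild type hypoxia, 57 to 59.4 in ΔN-VEGF normoxia and 156 to 177 in ΔN-VEGF hypoxia, and is named here after its values were seen. The normoxia level of Vegfa differed by -0.96 on the log2 scale (ΔN-VEGF over wild type, adjusted p = 0.039), with the wild type sample numbered 2, at 39.4 CPM, close to the ΔN-VEGF samples at 34.2 to 37.3 CPM, and its hypoxia level differed by 0.61 without a call (adjusted p = 0.074).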

How the results depend on the processing

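The 4 rises and 2 falls in ΔN-VEGF hypoxia, and the rises of Gys1, Gbe1, Pgm2 and Ugp2 in wild type hypoxia, kept their direction and call in each of 20 alternative fits. With samples left out one at a time, 4 to 6 members were called in wild type hypoxia, 0 to 4 (4 without the wild type and 1 without the ΔN-VEGF normoxia sample numbered 2) between the lines in normoxia, 2 to 5 between the lines in hypoxia and 0 to 2 for the interaction. With both normoxia samples numbered 2 left out, these last 3 counts were 4, 5 and 3, in place of 0, 3 and 0. For fits with samples left out, the share of all genes called was not counted. Between the lines in hypoxia, 0 members passed with at least 2-fold required and 5 in a fit of only the 6 samples. DESeq2 called the interaction of 1 member, Pygb, among 1487 of all genes, where edgeR called 495. With the replicate number as a block, 0 members differed in normoxia and 3 in hypoxia. In hypoxia Ugp2 (adjusted p = 0.05) was exchanged for Gyg (adjusted p = 0.042), and no other member's call changed. Directions turned for small differences. Between the lines Gbe1 was at -0.01 and Pgm2 at -0.15 in hypoxia on total counts alone, and Pygb was at 0.03 in normoxia with no filter, and at -0.12 to 0.03 with samples left out. For the interaction Hk2 was at -0.08 with both samples left out and at -0.11 to 0.53 with single samples left out, and Gpi1 at -0.13 on total counts alone, -0.03 with no filter, -0.06 with both left out and -0.09 to 0.15 with single samples left out. On total counts alone the median interaction of all genes moved from 0.03 to -0.15, and 16.3% of the calls were higher in place of 65.9%. The cause of these changes was not tested. Depth limits Pygl, Ppp1r3b and Ppp1r3c.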
